A study of Mus musculus with 6 samples.

Results

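The genes described here are 41 genes of the cell division cycle, from the cyclins and replication helicase of G1 and S phase to the spindle and chromosome proteins of mitosis, read in kidneys of KC-Tie2 and Control mice. They were taken by name from a list of genes known for these roles, and 35 of the 41 are among the 17550 genes of the deposited expression table. The rule itself uses no measured value, but the list was chosen with earlier results of these data known. Cdc6, Ccne1, Ccnb1, Ccnb2, Bub1 and Ube2c were not analysed here, because the table as used does not list them. All 35 passed the filter on low values, a 6-library mean of 10 or more.

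A dividing cell first commits to the cycle when D-type cyclins activate their kinases and release E2F transcription factors from the retinoblastoma protein. It then loads the MCM helicase on DNA, copies the genome in S phase, and builds a spindle in mitosis under the control of Cdk1 with cyclins A and B and of the Aurora kinases. Most epithelial cells of the adult kidney rest outside the cycle, and tubule cells are known to re-enter it after injury. CDK inhibitors of the Cip/Kip family, which Cdkn1a, Cdkn1b and Cdkn1c encode, hold cells out of it.

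The samples were 3 KC-Tie2 and 3 Control kidneys, perfused with saline and sequenced as poly(A)-selected RNA. KC-Tie2 mice are a psoriasis model in which the angiopoietin receptor Tie2 is overexpressed in keratinocytes of the skin, so the kidney is not the tissue that the model targets. The labels used here call the other genotype only Control and give no strain, sex, age, promoter or batch for either genotype. Nor do they name the animal behind each sample, so a p-value here reflects only the variation among these 6 samples, which may be technical. Values are the authors' normalized counts, and 1 estimated read was worth 0.834 to 1.11 of these units in the KC-Tie2 libraries and 0.826 to 1.35 in the Control libraries, which puts the depth at about 21.3 M to 29.5 M estimated counts in KC-Tie2 and 18.8 M to 29.4 M in Control libraries. All 9 kidney epithelium markers chosen for a check of the tissue were in the table, and their normalized counts summed to between 367297 and 414056 in KC-Tie2 and between 399302 and 413854 in Control libraries. In whole kidney, more dividing cells and more transcript per cell cannot be told apart.

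Low counts limit many of the genes of mitosis. The lowest of the 35 genes averaged 14.6 normalized counts over the 6 libraries and the highest, Ccnd1, 4967. In at least 1 library, 8 of the 35 genes had under 20 estimated counts and 5 had under 10, and 13 had at least 100 in every library. Aurkb was the extreme, with 15, 47 and 11 estimated counts in KC-Tie2 replicates 1 to 3 and 2, 11 and 8 in Control replicates 1 to 3. No gene of the deposited table had a highest value under 24.78 normalized counts. Aurkb, Cdk1, Tpx2, Birc5, Cdc20, Aurka and Kif11 reached that level only in KC-Tie2 libraries. Being in the table may thus favour higher KC-Tie2 values at these genes, and the counts and medians of the G2/M genes below share this limit.

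Promoters of the genes are shown first, because genes of one phase share short DNA elements. The cell cycle homology region (CHR, searched as TTTGAA or TTCGAA) and the CCAAT box (CCAAT) are known elements of genes expressed in G2 and mitosis, and the E2F site (searched as TTTCGCGC, TTTGGCGC, TTTCCCGC or TTTGCCGC) of genes of G1 and S phase. RefSeq windows of 300 bases on GRCm38.p6, from 250 bases before to 50 after the start, were found for 11 of the 16 measured G2/M genes and 11 of the 13 measured replication genes, and both strands were searched. A CHR and a CCAAT box stood together in 10 of the 12 windows of the G2/M genes (83.3%) and in 3 of the 14 windows of the replication genes (21.4%), against 7.52% of all 32851 windows. An E2F site stood in 1 of 12 (8.33%) G2/M windows and in 5 of 14 (35.7%) replication windows, against 2.26% of all windows. Birc5 and Nusap1 of the G2/M genes, Tyms of the replication genes and the inhibitor gene Cdkn1a had none of the 3 elements in their windows. The 3 of 6 D-type cyclin and CDK inhibitor genes with windows had neither a CHR nor an E2F site in any of 5. Taken alone, a CCAAT box stood in 10 of 12 G2/M windows and 10 of 14 replication windows (71.4%), against 37.4% of all windows. These are matches of letters, not bound sites. The 160 bases before the start are given 5′ to 3′ for 5 G2/M genes, with CHR and CCAAT letters of either strand in capitals (TTCAAA and ATTGG are the other strand's TTTGAA and CCAAT):
Mki67 (chr7:135716380-135716539, minus strand): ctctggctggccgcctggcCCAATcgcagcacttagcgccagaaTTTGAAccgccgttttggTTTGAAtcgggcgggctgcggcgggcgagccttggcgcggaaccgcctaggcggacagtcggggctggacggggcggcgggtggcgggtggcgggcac
Top2a (chr11:99024190-99024349, minus strand): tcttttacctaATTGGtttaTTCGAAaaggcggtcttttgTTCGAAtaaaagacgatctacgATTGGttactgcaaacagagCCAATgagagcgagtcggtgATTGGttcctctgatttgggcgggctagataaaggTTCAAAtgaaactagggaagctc
Kif11 (chr19:37376222-37376381, plus strand): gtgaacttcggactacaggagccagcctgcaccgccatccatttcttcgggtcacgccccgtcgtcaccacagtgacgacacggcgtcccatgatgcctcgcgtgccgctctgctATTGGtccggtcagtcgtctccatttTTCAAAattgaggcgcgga
Cdk1 (chr10:69352913-69353072, minus strand): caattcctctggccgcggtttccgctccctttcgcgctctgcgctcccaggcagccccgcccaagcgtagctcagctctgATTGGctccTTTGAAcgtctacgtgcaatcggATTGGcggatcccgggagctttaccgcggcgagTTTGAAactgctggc
Cdc20 (chr4:118437344-118437503, minus strand): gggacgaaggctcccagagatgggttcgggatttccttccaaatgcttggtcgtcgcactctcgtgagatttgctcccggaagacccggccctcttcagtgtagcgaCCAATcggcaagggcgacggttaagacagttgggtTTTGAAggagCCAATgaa

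Helicase genes Mcm5 and Mcm6 are given for contrast over the same 160 bases, with only the E2F letters in capitals. Both hold a pair of E2F matches that overlap on opposite strands:
Mcm5 (chr8:75109349-75109508, plus strand): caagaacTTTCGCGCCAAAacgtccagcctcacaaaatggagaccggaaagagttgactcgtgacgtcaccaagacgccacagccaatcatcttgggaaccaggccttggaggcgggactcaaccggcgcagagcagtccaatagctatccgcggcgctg
Mcm6 (chr1:128359706-128359865, minus strand): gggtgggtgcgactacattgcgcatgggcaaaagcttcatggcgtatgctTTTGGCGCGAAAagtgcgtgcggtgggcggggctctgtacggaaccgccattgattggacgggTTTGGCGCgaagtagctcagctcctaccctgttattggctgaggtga

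The question of the comparison was whether cell cycle transcripts differ in kidneys of mice with psoriasis-like skin disease. Of the 16 genes of G2 and mitosis, 15 had a higher fitted mean level in KC-Tie2 than in Control kidneys, but the 3 KC-Tie2 libraries differed widely among themselves and no gene passed the limma test. Of the 35 genes, 0 were called higher and 0 lower at a limma adjusted p under 0.05, where 0.855% of the 17539 tested genes were called higher and 0.838% lower (1.69% in all). At an unadjusted p under 0.05, 12 of the 35 (34.3%) were higher and 0 lower in limma, against 7.57% and 7.77% of all genes. In the authors' deposited table, 2 of the 35 were higher and 0 lower at a step-up FDR under 0.05, against 1.83% and 2.08% of all genes. These 2 were Top2a, with a ratio of 2.63 and an FDR of 0.0076 in the authors' deposited table, and Cenpf, with a ratio of 2.93 and an FDR of 0.0212 there.

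The log2 fold change, KC-Tie2 minus Control on the log2(value + 1) scale, was above 0 for 29 of the 35 genes (82.9%), against 50.3% of all genes tested. Its median was 0.42 over the 35 genes, against 0.00 over all genes tested. By role, it was 0.93 over the 16 G2/M genes, 0.24 over the 13 replication genes, 0.25 over the 3 D-type cyclins and 0.24 over the 3 CDK inhibitors. A fold of at least 2 was reached by 7 of the 35 genes, all 7 of them G2/M genes, against 0.889% of all genes. Among these, Aurkb, Kif11 and Tpx2 reached 24.78 normalized counts, the smallest highest value of any listed gene, only in KC-Tie2 libraries. All 3 KC-Tie2 libraries lay above all 3 Control libraries at 11 of the 35 genes (31.4%) and below them at 0, against 9.96% and 10% of all genes.

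**Figure D1:**
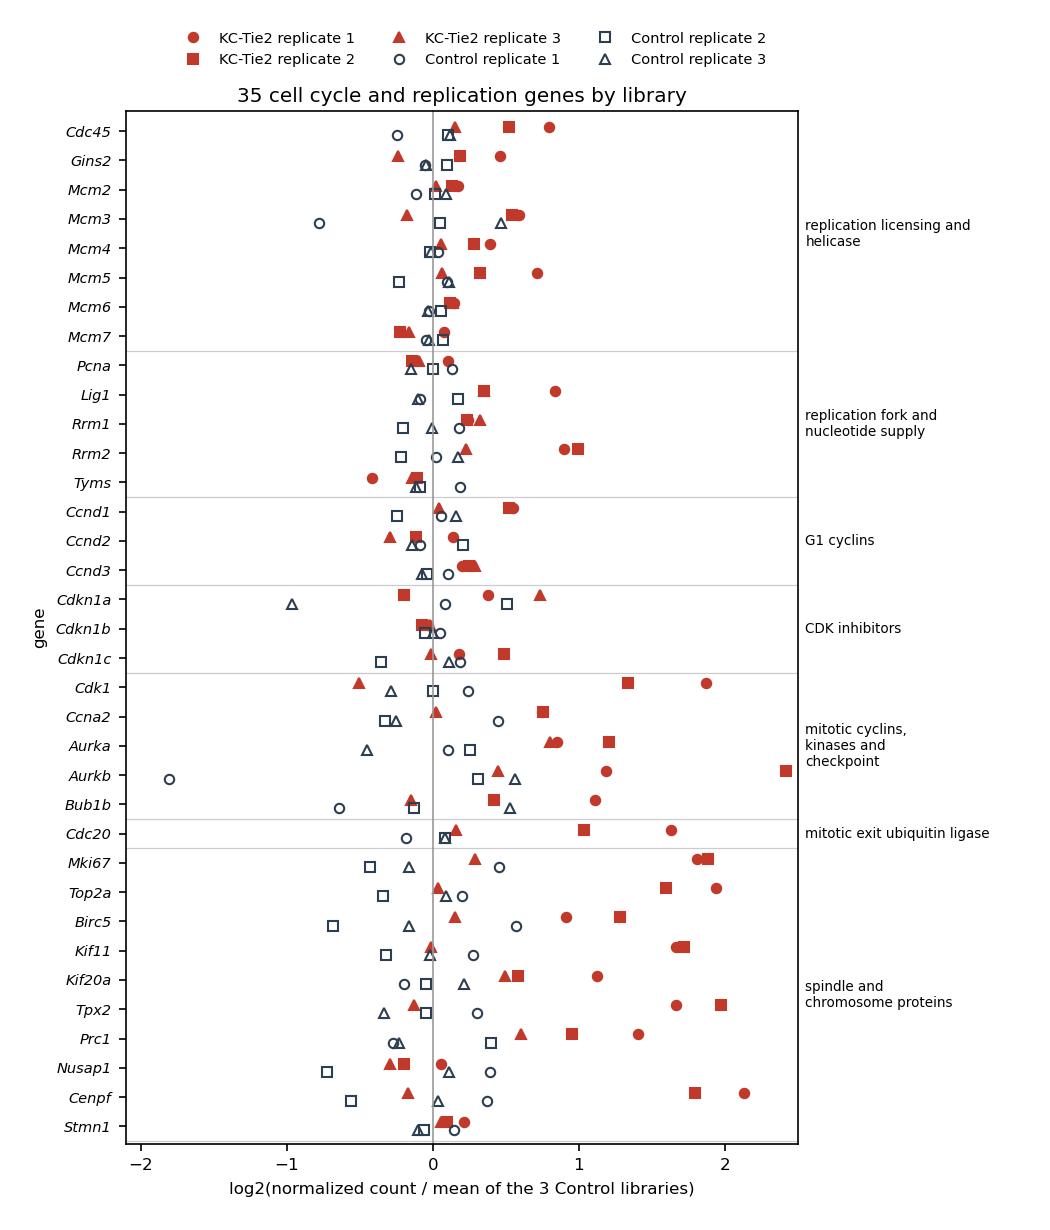
Each of the 35 genes in each library, as log2 of the normalized count over the mean of the 3 Control libraries, with filled symbols for KC-Tie2 and open symbols for Control, ordered by role. In the lower part, which holds the G2/M genes, KC-Tie2 replicates 1 and 2 lie to the right of all other libraries at 13 of 16 genes, and KC-Tie2 replicate 3 is the lowest KC-Tie2 library at all 16.

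The replicative helicase is built from Mcm2 to Mcm7, which form its ring, and from Cdc45 and Gins2, which activate it. Of these 8 genes, 7 had a log2 fold change above 0, none was called (0 also at an unadjusted p under 0.05 in limma), and the values ran from -0.10 for Mcm7 to 0.48 for Cdc45. Mcm4 had 195, 181 and 155 normalized counts in KC-Tie2 and 152, 147 and 147 in Control kidneys. All its KC-Tie2 libraries were above all its Control libraries, by a small margin in KC-Tie2 replicate 3, and the log2 fold change was 0.24 ± 0.14 (SE, n = 3 per genotype, limma adjusted p = 0.449). Mcm6 had the smallest SE of the ring genes, with 431, 423 and 429 normalized counts in KC-Tie2 and 383, 406 and 382 in Control kidneys. Its groups did not overlap either, at a log2 fold change of 0.13 ± 0.09 (limma adjusted p = 0.525). Mcm5 had 125, 95.9 and 79.8 normalized counts in KC-Tie2 and 81.9, 65.2 and 82.5 in Control kidneys, so KC-Tie2 replicate 3 fell inside the Control range. Cdc45 had 45.5, 37.5 and 29.0 normalized counts in KC-Tie2 and 22.1, 28.1 and 28.4 in Control kidneys, and the groups did not overlap (log2 fold change 0.48 ± 0.29, limma adjusted p = 0.483). As at Mcm5, the genotypes overlapped at Mcm2, Mcm3, Gins2 and Mcm7. Mcm2 had 304, 296 and 275 normalized counts in KC-Tie2 and 250.02, 273 and 288 in Control kidneys. Mcm3 had 103, 100.03 and 60.8 normalized counts in KC-Tie2 and 39.9, 71.0 and 94.7 in Control kidneys, with KC-Tie2 replicate 3 inside the Control range. Gins2 had 113, 92.7 and 69.2 normalized counts in KC-Tie2 and 78.8, 87.2 and 79.0 in Control kidneys, and KC-Tie2 replicate 3 was its lowest library. Mcm7 had 358, 289.6 and 302 normalized counts in KC-Tie2 and 329, 355 and 333 in Control kidneys, and the 95% interval of the log2 fold change ran from -0.34 to 0.14.

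Of the 5 genes of the replication fork and of nucleotide supply, the 3 with non-overlapping groups were Rrm2, Lig1 and Rrm1. Rrm2, the small subunit of ribonucleotide reductase, which makes deoxynucleotides, had 125, 134 and 78.9 normalized counts in KC-Tie2 and 68.3, 57.8 and 75.8 in Control kidneys. KC-Tie2 replicate 3 cleared the highest Control library by little, and the log2 fold change was 0.71 ± 0.22 (limma adjusted p = 0.15). Lig1, the ligase that joins Okazaki fragments, had 191, 137 and 137 normalized counts in KC-Tie2 and 101, 121 and 100.1 in Control kidneys (log2 fold change 0.51 ± 0.18, limma adjusted p = 0.181). Rrm1, the large reductase subunit, had 285, 284 and 302 normalized counts in KC-Tie2 and 273, 210 and 241 in Control kidneys (log2 fold change 0.28 ± 0.12, limma adjusted p = 0.31). Here KC-Tie2 replicate 3 was the highest library, unlike at Rrm2. Pcna, the sliding clamp of the fork, averaged 389.5 ± 35.8 normalized counts in KC-Tie2 and 401 ± 38.4 in Control kidneys (SD, n = 3 each), and the 95% interval of its log2 fold change was -0.27 to 0.20. The table also lists a Pcna pseudogene, Pcna-ps2, at means of 148 in KC-Tie2 and 146 in Control kidneys, so reads could be split between the copies. Tyms, thymidylate synthase, had 190, 236 and 230 normalized counts in KC-Tie2 and 289, 239 and 234 in Control kidneys, with a log2 fold change of -0.22 ± 0.13 (limma adjusted p = 0.495).

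The D-type cyclins are the entry point of the cycle, and the 3 of them differed in pattern. Ccnd1 had 6289, 6180 and 4435 normalized counts in KC-Tie2 and 4479, 3625 and 4794 in Control kidneys. KC-Tie2 replicates 1 and 2 were above every other library and replicate 3 was inside the Control range (log2 fold change 0.38 ± 0.16, limma adjusted p = 0.324). Ccnd3 had 1627, 1684 and 1732 normalized counts in KC-Tie2 and 1525, 1380 and 1345 in Control kidneys. Its groups did not overlap and its spread was small, at a log2 fold change of 0.25 ± 0.07 (limma adjusted p = 0.111). Ccnd2 had 683, 574 and 506 normalized counts in KC-Tie2 and 584, 715 and 561 in Control kidneys, with overlap of the genotypes and a 95% interval of its log2 fold change of -0.35 to 0.19.

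The 3 CDK inhibitors had log2 fold changes from -0.04 to 0.42, with 0 called (0 also at an unadjusted p under 0.05 in limma). Cdkn1a, which encodes p21 and is a target of p53, had 264, 177 and 338 normalized counts in KC-Tie2 and 215, 289 and 104 in Control kidneys. The lowest library was a Control and the highest a KC-Tie2 one, the rest were mixed, and the 95% interval of the log2 fold change, -0.74 to 1.59, was the widest outside the G2/M genes. Cdkn1b, which encodes p27, had the smallest SE of the 35 genes, with 1087, 1056 and 1094 normalized counts in KC-Tie2 and 1147, 1073 and 1114 in Control kidneys and an interval of -0.19 to 0.10. Cdkn1c, which encodes p57 and is known in podocytes, averaged 391 ± 69.0 normalized counts in KC-Tie2 and 332 ± 63.2 in Control kidneys (SD, limma adjusted p = 0.558).

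**Figure D2:**
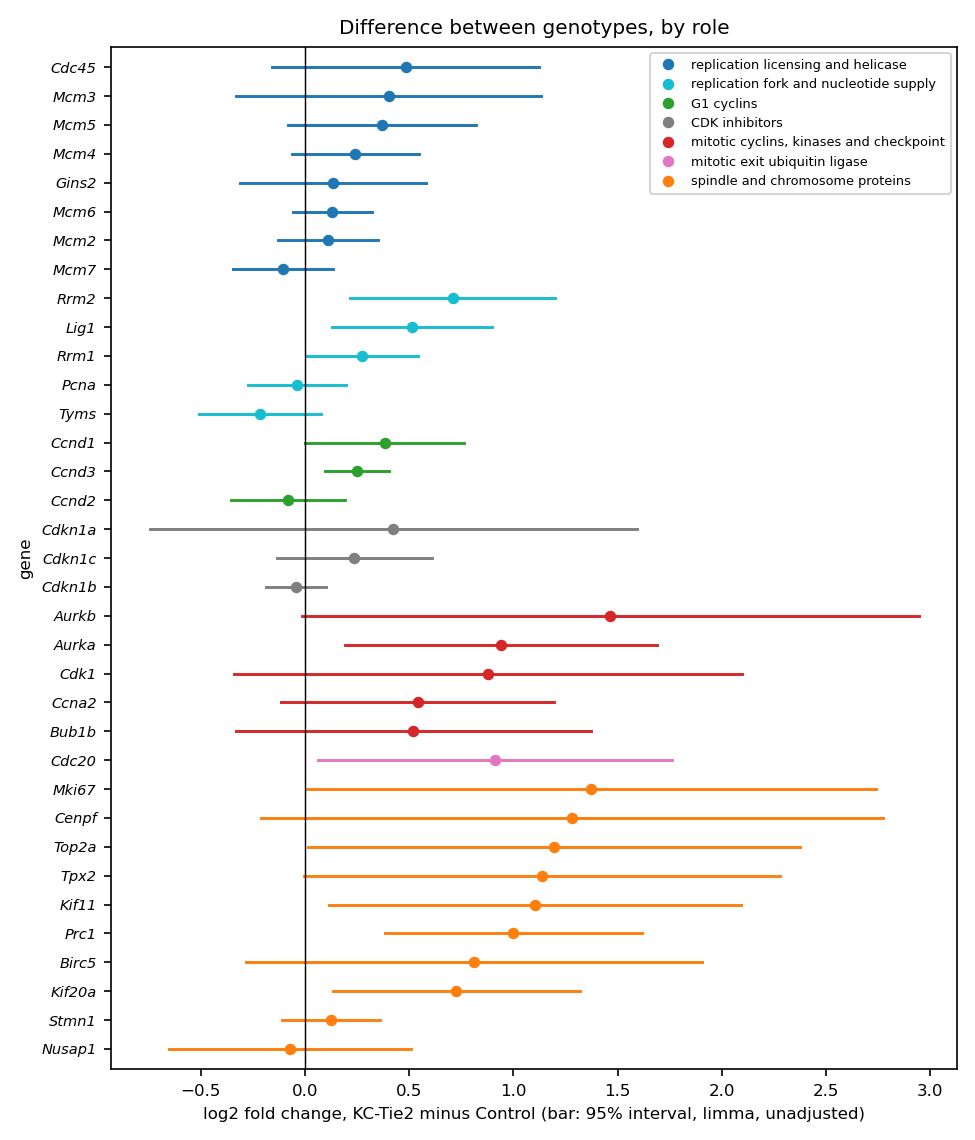
Log2 fold change (KC-Tie2 minus Control, log2(value + 1) scale) of the 35 genes by role, with the 95% interval of the limma fit, not adjusted for the number of genes. The G2/M genes have the largest estimates, up to 1.47 for Aurkb, and the widest intervals, and the interval of Cdkn1b lies between -0.19 and 0.10.

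Among the mitotic kinases, cyclins and checkpoint genes, all 5 measured had a log2 fold change above 0, from 0.52 for Bub1b to 1.47 for Aurkb. Cdk1, the kinase that drives entry into mitosis, had 42.2, 29.2 and 8.17 normalized counts in KC-Tie2 and 13.7, 11.6 and 9.47 in Control kidneys. KC-Tie2 replicate 3 was the lowest of all 6 libraries while replicates 1 and 2 were the highest, and the log2 fold change was 0.88 ± 0.56 (limma adjusted p = 0.506). Ccna2, cyclin A2 of S phase and early mitosis, had 59.7, 59.9 and 36.1 normalized counts in KC-Tie2 and 48.4, 28.3 and 29.7 in Control kidneys (limma adjusted p = 0.431). Aurka, the kinase of the spindle poles, was an exception to this pattern, with 30.0, 38.3 and 29.0 normalized counts in KC-Tie2 and 17.9, 19.8 and 12.2 in Control kidneys. All its KC-Tie2 libraries exceeded all its Control libraries (log2 fold change 0.94 ± 0.34, limma adjusted p = 0.207). Aurkb, the kinase of the chromosomal passenger complex, had 16.7, 39.2 and 9.98 normalized counts in KC-Tie2 and 2.10, 9.08 and 10.8 in Control kidneys (limma adjusted p = 0.328). Bub1b, a spindle checkpoint kinase, had 56.6, 35.01 and 23.6 normalized counts in KC-Tie2 and 16.8, 24.0 and 37.9 in Control kidneys, and the genotypes overlapped. Cdc20, the activator of the anaphase-promoting ubiquitin ligase, had 55.5, 36.7 and 19.96 normalized counts in KC-Tie2 and 15.8, 19.0 and 18.9 in Control kidneys, and KC-Tie2 replicate 3 was only just above the Control libraries (log2 fold change 0.91 ± 0.39, limma adjusted p = 0.289).

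Of the 10 spindle and chromosome proteins, 9 had a log2 fold change above 0, with a median of 1.05, and 0 were called in limma (5 higher and 0 lower at an unadjusted p under 0.05), while the authors' deposited table had Top2a and Cenpf higher, as given above. Mki67, the proliferation marker that coats mitotic chromosomes (ENSMUSG00000031004, mm39 chromosome 7, 135291513 to 135318090), had 441, 466 and 154 normalized counts in KC-Tie2 and 172, 93.3 and 112 in Control kidneys. KC-Tie2 replicates 1 and 2 stood far above the rest and replicate 3 fell between the Control libraries. Its log2 fold change was 1.37 ± 0.53, a 2.59-fold difference (95% interval of the log2 value 0.0030 to 2.74, limma adjusted p = 0.325). Top2a, the topoisomerase that untangles replicated DNA (ENSMUSG00000020914, mm39 chromosome 11, 98883769 to 98915015), had 199.9, 158 and 53.5 normalized counts in KC-Tie2 and 59.9, 41.3 and 55.5 in Control kidneys (log2 fold change 1.19 ± 0.49, limma adjusted p = 0.32). Cenpf, a kinetochore protein (ENSMUSG00000026605, mm39 chromosome 1, 189372803 to 189420283), had 139, 110.0 and 28.1 normalized counts in KC-Tie2 and 41.0, 21.5 and 32.5 in Control kidneys (log2 fold change 1.28 ± 0.62, limma adjusted p = 0.4001). At Top2a and Cenpf, as at Mki67, KC-Tie2 replicate 3 lay inside the Control range.

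Kif11, the motor that separates the spindle poles, had 52.2, 54.2 and 16.3 normalized counts in KC-Tie2 and 19.96, 13.2 and 16.2 in Control kidneys (log2 fold change 1.10 ± 0.45, limma adjusted p = 0.267). Tpx2, which activates Aurora A on the spindle, had 37.7, 46.7 and 10.9 normalized counts in KC-Tie2 and 14.7, 11.6 and 9.47 in Control kidneys (log2 fold change 1.14 ± 0.52, limma adjusted p = 0.327). Both repeated the pattern of Mki67, with replicate 3 at the level of the Control libraries. Prc1, which bundles the microtubules of the midzone, was different: it had 87.6, 63.9 and 50.2 normalized counts in KC-Tie2 and 27.4, 43.6 and 28.1 in Control kidneys, and its groups did not overlap. With a log2 fold change of 1.00 ± 0.28 it had the smallest limma adjusted p of the 35 genes, 0.107. The whole of Prc1 lies within Rccd1 on the other strand (21810 shared bases), and the sources used here do not say whether counting used strand, so its share of reads is uncertain. Kif20a, a motor of cytokinesis, had 63.9, 43.9 and 41.3 normalized counts in KC-Tie2 and 25.5, 28.4 and 33.9 in Control kidneys, again without overlap (limma adjusted p = 0.22). It too shares bases with a gene on the other strand, Cdc23 (2327 bases). Of the 35 genes, 10 overlap another listed gene in this way, by 53 bases at the least.

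At the other 3 genes of this role the genotypes overlapped. Birc5, the survivin of the passenger complex, had 19.98, 25.8 and 11.8 normalized counts in KC-Tie2 and 15.8, 6.61 and 9.47 in Control kidneys, with KC-Tie2 replicate 3 inside the Control range (log2 fold change 0.81 ± 0.50, limma adjusted p = 0.489). Nusap1, a microtubule-binding protein of the spindle, had 92.2, 77.5 and 72.6 normalized counts in KC-Tie2 and 117, 53.7 and 96.1 in Control kidneys, and was the only G2/M gene of the 16 with a log2 fold change below 0 (-0.07 ± 0.26). Stmn1, a microtubule-destabilizing protein, averaged 331 ± 18.8 normalized counts in KC-Tie2 and 304 ± 28.7 in Control kidneys (SD), with a 95% interval of -0.11 to 0.36.

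**Figure D3:**
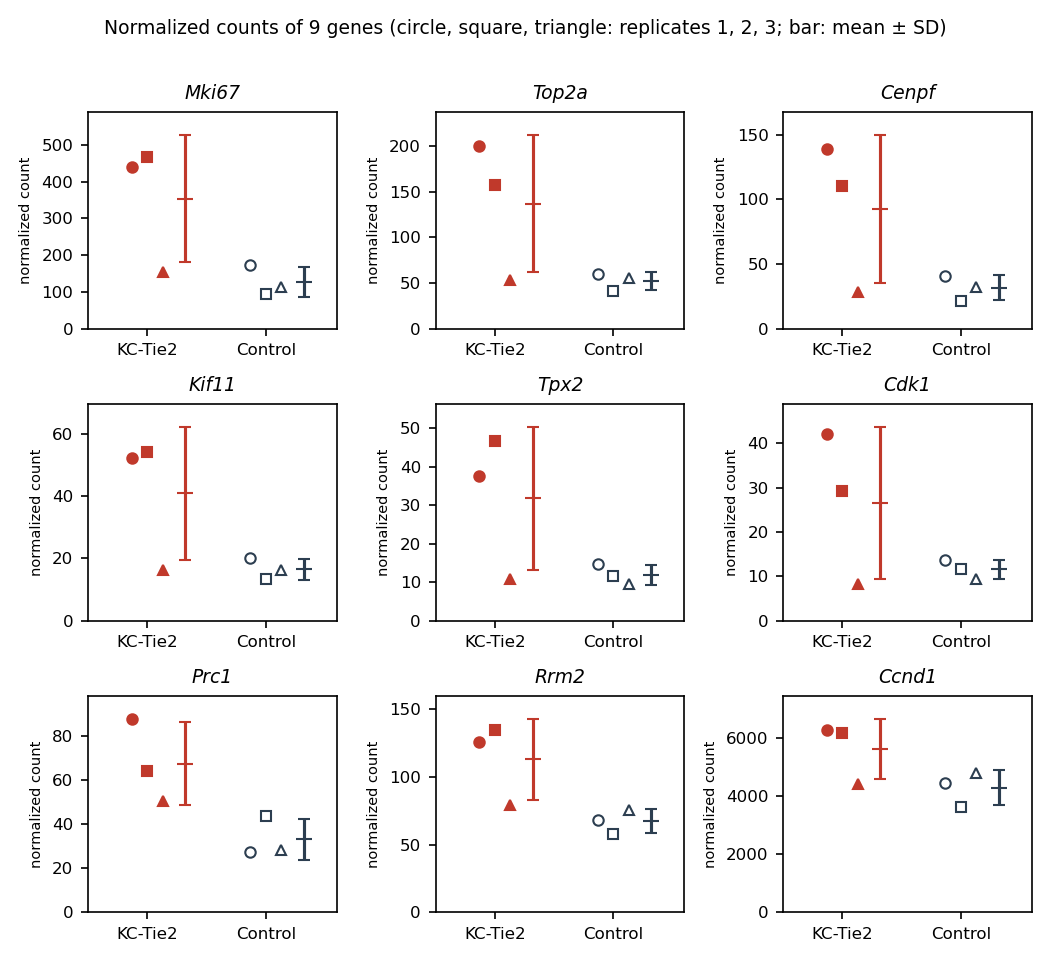
Normalized counts of 9 genes in each KC-Tie2 library (filled) and each Control library (open), with circle, square and triangle for replicates 1, 2 and 3 and the mean ± SD beside them. For Mki67, Top2a, Cenpf, Kif11, Tpx2 and Ccnd1, KC-Tie2 replicate 3 lies inside the range of the Control libraries, for Cdk1 below it, and for Prc1 and Rrm2 above it.

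The split among KC-Tie2 libraries was shared, to differing degrees, by most G2/M genes. Their summed normalized counts were 1746, 1609 and 882 in KC-Tie2 replicates 1 to 3 and 945, 717 and 796 in Control replicates 1 to 3. In each library, the median over the 16 genes of the ratio to the Control mean was 2.46, 2.37 and 1.03 in KC-Tie2 and 1.16, 0.94 and 0.96 in Control kidneys. KC-Tie2 replicate 3 was the lowest KC-Tie2 library at 16 of the 16 G2/M genes and at 26 of all 35, against 34.8% of all genes tested. KC-Tie2 replicates 1 and 2 were both above the other 4 libraries at 13 of the 16 and at 21 of the 35 (60%), against 13.6% of all genes. KC-Tie2 replicate 3 lay inside the Control range at 11 of the 16, above it at 4 and below it at 1. Over all genes tested it lay inside that range at 50.8%. The 16 genes were read in the same libraries and are not independent counts of this split. For the 13 replication genes the median ratio was 1.31, 1.18 and 1.04 in KC-Tie2 and 0.98, 1.01 and 0.99 in Control kidneys. KC-Tie2 replicate 3 was the lowest KC-Tie2 library at 7 of the 13. A narrower version of the same order was seen at the 8 helicase genes (1.35, 1.18 and 1.03 in KC-Tie2, replicate 3 lowest at 6). The 5 genes of the fork and of nucleotide supply did not show the order (1.18, 1.18 and 1.17, replicate 3 lowest at 1). Nor did the 3 CDK inhibitors, with 1.13, 0.95 and 0.99 in KC-Tie2 and 1.06, 0.97 and 1.00 in Control kidneys.

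Leaving out each library in turn changed the number of called genes of the 35 only for KC-Tie2 replicate 3. Without that library 7 of the 35 passed a limma adjusted p under 0.05, all higher, against 1.77% of all genes called higher and 2.12% lower in that fit. These were Mki67 (3.7-fold, limma adjusted p = 0.00526), Top2a (3.39-fold, 0.00338), Cenpf (3.94-fold, 0.007), Kif11 (3.14-fold, 0.0319), Tpx2 (3.38-fold, 0.0475), Rrm2 (1.93-fold, 0.0316) and Ccnd1 (1.46-fold, 0.0282). The library left out is itself the lowest KC-Tie2 library for these 7 genes, so the second fit is no separate evidence of a genotype difference. With any of the other 5 libraries left out, 0 of the 35 were called.

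Wider lists of each phase were compared with the 35 genes. Over all genes tested, 50.3% lay above 0, and 0.855% were called higher and 0.838% lower in limma. At an unadjusted p under 0.05 in limma, 7.57% of all genes were higher and 7.77% lower. In the authors' deposited table, 1.83% of all genes were higher and 2.08% lower at an FDR under 0.05. Of 55 measured genes of a wider G2/M list, 42 had a log2 fold change above 0 and 0 were called in limma (12 higher and 1 lower at an unadjusted p under 0.05), with a median of 0.35. At a filter of 100 on the mean, 19 of the 55 were tested and 10 lay above 0, with a median of 0.01. Of these 19, 3 were higher and 1 lower at an unadjusted p under 0.05 in limma. The shift of the median thus lay at the genes of lower counts. In the authors' deposited table, 7 of the 55 were higher and 0 lower at an FDR under 0.05, with FDRs of 0.0178 for Tuba1b, 0.0212 for Pbk, 0.0229 for Ncapg2, 0.024 for Arhgap11a, 0.0335 for Racgap1, 0.0421 for Iqgap3 and 0.0488 for Ckap2l. The 2 with the smallest p in limma were Racgap1, a regulator of cytokinesis, and Ncapg2, a condensin II subunit. Racgap1 had 73.0, 77.5 and 49.8 normalized counts in KC-Tie2 and 27.3, 39.5 and 23.0 in Control kidneys (log2 fold change 1.14 ± 0.28, limma adjusted p = 0.0709). Ncapg2 had 109, 118 and 70.8 normalized counts in KC-Tie2 and 51.5, 46.2 and 55.5 in Control kidneys (log2 fold change 0.91 ± 0.23, limma adjusted p = 0.0719). In both, all KC-Tie2 libraries were above all Control libraries and replicate 3 was again the lowest of its genotype. KC-Tie2 replicate 3 was the lowest KC-Tie2 library at 39 of the 55 genes, and their median ratio to the Control mean was 1.5, 1.3 and 1.04 in KC-Tie2 and 1.04, 0.97 and 1.00 in Control kidneys.

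Of 60 measured genes of a wider G1/S list, 39 lay above 0 on the log2 fold scale, 1 rose and 0 fell, with a median of 0.10. Over all genes, 0.855% rose and 0.838% fell. At an unadjusted p under 0.05 in limma, 4 of the 60 were higher (6.67%) and 2 lower, against 7.57% and 7.77% of all genes. The gene that rose was E2f1, the transcription factor that switches on genes of S phase (ENSMUSG00000027490, mm39 chromosome 2, 154401327 to 154411812). E2f1 had 88.8, 103 and 82.6 normalized counts in KC-Tie2 and 36.8, 44.6 and 56.8 in Control kidneys, so all 3 KC-Tie2 libraries were above all 3 Control libraries, with replicate 3 the lowest of its genotype. Its log2 fold change was 0.99 ± 0.22 (1.98-fold, limma adjusted p = 0.0463). The call was held in 8 of 14 alternatives, with adjusted p-values from 0.0243 to 0.23, and was lost with eBayes without robust and with any single library other than KC-Tie2 replicate 3 left out.

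Of 25 measured p53 target genes, 13 had a log2 fold change above 0 and 0 were called in limma (3 higher and 2 lower at an unadjusted p under 0.05), with a median of 0.00. At that unadjusted p, 7.57% of all genes were higher and 7.77% lower, and 12% of this list was higher. The 2 with the smallest p had log2 fold changes of opposite sign, and the genotypes overlapped at neither. Sesn2, a stress-induced inhibitor of growth signalling, had 1047, 978 and 1083 normalized counts in KC-Tie2 and 1876, 1250 and 1852 in Control kidneys (log2 fold change -0.66 ± 0.15, limma adjusted p = 0.0982). In the authors' deposited table Sesn2 was the 1 gene of this list called, lower at a ratio of 0.625 and an FDR of 0.000105. Pmaip1, which encodes the pro-apoptotic protein Noxa, had 255, 328 and 239 normalized counts in KC-Tie2 and 223, 201 and 179.9 in Control kidneys (log2 fold change 0.44 ± 0.14, limma adjusted p = 0.169). Of 35 measured regulators of RB, E2F and cyclin-dependent kinases, 21 were above 0 and 0 were called in limma (2 higher and 0 lower at an unadjusted p under 0.05), with a median of 0.06. Against 7.57% of all genes, 5.71% of this list was higher at that unadjusted p. The 2 with the smallest p were the inhibitor gene Cdkn2b, which encodes p15 (92.2, 52.5 and 69.9 in KC-Tie2 and 38.9, 53.7 and 28.4 in Control kidneys, limma adjusted p = 0.189), and Fbxw7, a ubiquitin ligase subunit that targets cyclin E (409.7, 453 and 433 in KC-Tie2 and 386, 382 and 354 in Control kidneys, log2 fold change 0.21 ± 0.09, limma adjusted p = 0.313).

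**Figure D4:**
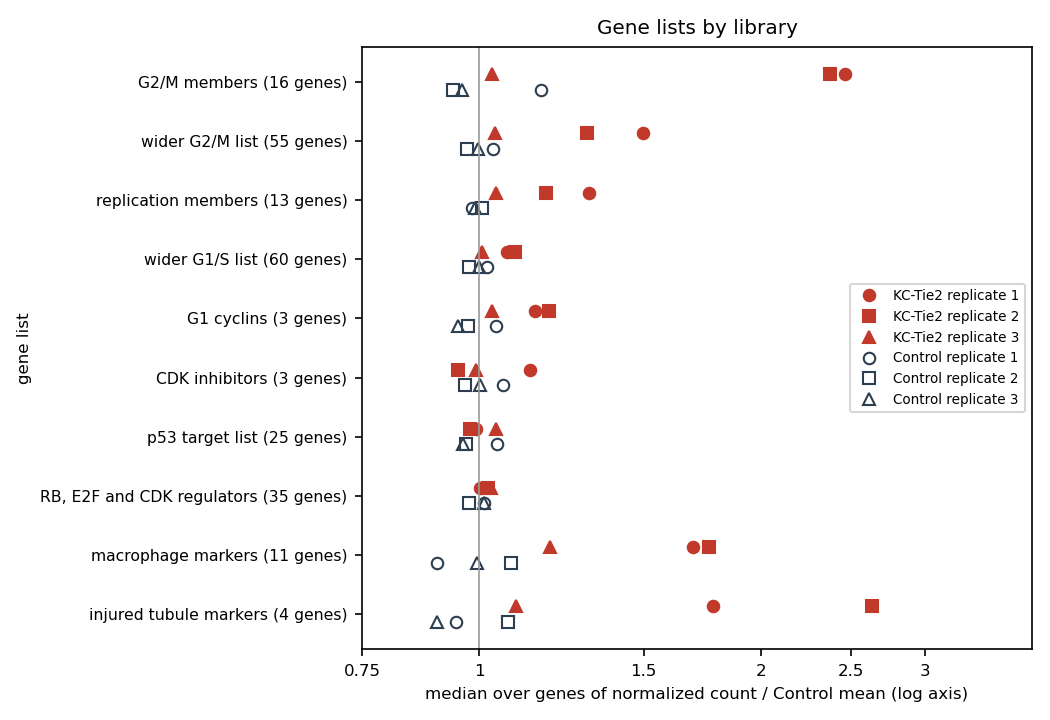
Median over the genes of each list of the normalized count divided by the Control mean (log axis), in each KC-Tie2 library (filled) and each Control library (open). The G2/M genes separate KC-Tie2 replicates 1 and 2 (2.46 and 2.37) from replicate 3 (1.03). Macrophage and injured tubule markers show the same order with replicates 1 and 2 above replicate 3, and the p53 targets do not. Of the marker lists not drawn, kidney epithelium (1.09, 1.29 and 1.00 in KC-Tie2 replicates 1 to 3), neutrophil (24.1, 14.0 and 5.18) and T and NK (0.96, 0.72 and 0.46) also have replicate 3 lowest. Red blood cell (2.58, 0.54 and 2.11) and B and plasma markers (0.41, 0.42 and 0.48) do not. Each measured neutrophil marker reached the smallest highest value of any listed gene only in KC-Tie2 libraries, which may favour high ratios there.

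Beside the marker lists below, 0.855% of all genes rose and 0.838% fell in limma. At an unadjusted p under 0.05, 7.57% of all genes were higher and 7.77% lower. All 11 measured macrophage markers were above 0 on the log2 fold scale, of which 3 rose (C1qa, C1qb and C1qc). C1qa alone was called without Control replicate 1, Control replicate 3, KC-Tie2 replicate 1 or KC-Tie2 replicate 2, 2 markers were called with non-robust eBayes, and 6 were called without KC-Tie2 replicate 3. The number above 0 was 9 without KC-Tie2 replicate 2, and 10 without KC-Tie2 replicate 1, Control replicate 1 or Control replicate 3. Macrophage markers summed to 3481, 3805 and 3019 normalized counts in KC-Tie2 and 2341, 2864 and 2910 in Control kidneys, and KC-Tie2 replicate 3 was the lowest KC-Tie2 library at 10 of the 11. All 3 measured neutrophil markers rose (S100a8, S100a9 and Csf3r), with sums of 145, 118 and 58.1 in KC-Tie2 and 8.40, 17.3 and 13.5 in Control kidneys. None of these 3 calls was held in limma without Control replicate 1, Control replicate 3, KC-Tie2 replicate 1 or KC-Tie2 replicate 2, where all 3 were higher at an unadjusted p under 0.05. S100a8 was at 0 in 2 Control libraries, and 5 of the 8 neutrophil markers, Mpo and Elane among them, were not analysed here. S100a8, S100a9 and Csf3r reached 24.78 normalized counts, the smallest highest value of any listed gene, only in KC-Tie2 libraries. Being in the table may thus favour higher KC-Tie2 values at these markers too. Of the 4 measured B and plasma cell markers, 3 fell (Igha, Jchain and Igkc), with sums of 241, 221 and 242 in KC-Tie2 and 375, 591 and 664 in Control kidneys. In limma 0 of these were called without Control replicate 3 or KC-Tie2 replicate 2 (3 lower at an unadjusted p under 0.05 in both). Only Igha was called without Control replicate 2 or KC-Tie2 replicate 1, and 2 were called without Control replicate 1, with non-robust eBayes and with quantile normalization. The 2 measured T and NK cell markers, Cd4 and Cd8a, were not called in limma (1 lower at an unadjusted p under 0.05), with sums of 37.7, 28.3 and 18.1 in KC-Tie2 and 32.6, 52.9 and 32.5 in Control kidneys.

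All 4 measured markers of injured tubules had a log2 fold change above 0 and none was called in limma (2 higher at an unadjusted p under 0.05). They summed to 517, 564 and 346 normalized counts in KC-Tie2 and 291, 328 and 248 in Control kidneys. Lcn2 and Vcam1 had the smallest p (limma adjusted p = 0.134 and 0.202), and Lcn2 was higher in the authors' deposited table at an FDR of 0.00593. Havcr1, which encodes the injury marker KIM-1, had 42.2, 128 and 18.1 normalized counts in KC-Tie2 and 19.96, 25.6 and 27.1 in Control kidneys, so only KC-Tie2 replicates 1 and 2 exceeded the Control range. Red blood cell markers followed another order, summing to 5079, 973 and 4011 in KC-Tie2 and 1911, 2203 and 1474 in Control kidneys, with 0 of 5 called in limma (0 also at an unadjusted p under 0.05). Of the 9 kidney epithelium markers, 0 were called in limma (4 higher and 1 lower at an unadjusted p under 0.05), and 2 were higher in the authors' deposited table. The part of any of these cells in the levels of the cell cycle genes was not tested.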

How the data were processed

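Poly(A)-selected RNA was measured in 3 KC-Tie2 and 3 Control kidneys, grouped by the sample titles. The deposited table holds a signal, normalized counts that are not whole. Partek 12.5.0, STAR, DESeq2 and the mm39 build are named, per the submitters' processing notes, without their roles. In that deposited table, 68.5% to 70.8% of values under 60 lay within 0.01 of a multiple of 1 step per library, which was taken as 1 estimated count. Whole reads were not recovered. The authors' second deposited table gives a p-value and step-up FDR, a ratio of means, a signed fold change and model means per gene, with the reference group headed WT. Its tool is not stated.

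Values were transformed as log2(value + 1). Genes with a 6-library mean of 10 or more, 17539 in all, were fitted with limma 3.58.1 in R 4.3.3 (trended and robust eBayes on 4 residual degrees of freedom), two-sided, with Benjamini-Hochberg adjustment over all of them, and called at an adjusted p under 0.05. "Rose" and "fell" mean called. The fit was tested on simulated data. Alternatives tried were leaving out each library in turn, library weights, non-robust eBayes, the replicate number as a block, quantile normalization or TMM scaling, adding 0.5 or 5 instead of 1, and filtering at a mean of 100 or not at all. All measured members were named or counted, and of each other list the called genes or the 2 with the smallest p. Some genes that this rule names are not reported here. Other names (Havcr1, Cdc23, Rccd1, Mpo, Elane, Plk1, Pbk, Ckap2l, Iqgap3) were chosen after their values were seen. Members, lists and rules were chosen with earlier results of these data known. Of the 35 genes, 10 share bases with a gene on the other strand. Coordinates are mm39 as deposited, the listed stop less 1 base being given as the end. Promoter sequences are RefSeq's on GRCm38.p6, and their coordinates were not converted. Tables and figures were made with Python 3.11.15, pandas 2.3.3, numpy 2.4.6 and matplotlib 3.10.9.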

Additional observations from a re-analysis of the deposited data

How the results depend on the processing

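The number of called members of the 35 cell cycle genes was 0 in each direction in every alternative except that without KC-Tie2 replicate 3. Left-out libraries gave 0 to 7 called higher, 48 to 682 genes called over the whole table (297 in the full fit), 0 to 3 higher and 0 to 1 lower in the wider G1/S list, 0 to 7 higher in the wider G2/M list and 0 to 1 lower in the p53 list. The replicate block gave 581 called genes in all, 1 lower G1/S gene, 3 higher G2/M genes and 1 lower p53 target (Sesn2). Library weights gave 549 in all, 3 higher G2/M genes and 1 lower p53 target. The wider G1/S list had 0 called higher with eBayes without robust and at a filter of 100 on the mean, where E2f1 was not tested. At that filter 16 of the 35 members were tested, and their median log2 fold change was 0.18 in place of 0.42. For the wider G2/M list, 19 of 55 genes were tested there, with a median of 0.01 in place of 0.35. Direction held in every alternative for 28 members above 0 and 3 below 0. It turned for Pcna (-0.11 to 0.028), Nusap1 (-0.39 to 0.16), Ccnd2 (-0.19 to 0.026) and Gins2 (-0.026 to 0.32) over the left-out libraries. Replicate numbers were not taken to pair the samples: deviations from the group means correlated at 0.178, -0.0956 and 0.0173 for numbers 1 to 3, and not every sample correlated best with its own number. Low counts limit the G2/M genes most.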

Other observations

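Within the wider G2/M list, the 3 genes with the highest log2 fold changes were chosen after their values were seen and were not called in limma (adjusted p of 0.184 for Pbk, 0.118 for Ckap2l and 0.156 for Iqgap3). In the authors' deposited table all 3 were higher, at FDRs of 0.0212 for Pbk, 0.0488 for Ckap2l and 0.0421 for Iqgap3. Pbk, which encodes a mitotic kinase, had 28.9, 32.5 and 5.44 normalized counts in KC-Tie2 and 1.05, 4.13 and 4.06 in Control kidneys (log2 fold change 2.31 ± 0.79), and its low Control values make the fold depend on the added 1. Ckap2l, a spindle protein, had 37.7, 30.8 and 17.2 in KC-Tie2 and 12.6, 7.43 and 4.06 in Control kidneys (log2 fold change 1.76 ± 0.51). Iqgap3 had 37.7, 70.9 and 19.1 in KC-Tie2 and 10.5, 16.5 and 13.5 in Control kidneys (log2 fold change 1.42 ± 0.46). In all 3 genes, every KC-Tie2 library was above every Control library, and replicate 3 was the lowest KC-Tie2 library. All 3 reached 24.78 normalized counts, the smallest highest value of any listed gene, only in KC-Tie2 libraries. Both this limit and the choice by fold favour such non-overlap. Of the 77 genes of this list, 55 were in the table. Plk1, the polo-like kinase of mitosis, had 33.3, 39.2 and 8.17 in KC-Tie2 and 12.6, 4.96 and 18.9 in Control kidneys, with replicate 3 inside the Control range.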
